A study of Rattus norvegicus with 6 samples.

Results

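Heat shock proteins and their J-domain partners were followed in the lungs of control and bleomycin (BLM)-treated rats, cell class by cell class. The members were all gene symbols of the count table that start with Hsp or Dnaj, without Hspg2 and Hspbap1, and the heat shock genes Zfand2a and Hsf1, which gave 57 of the 16383 genes measured. They comprised 9 genes of the HSP70 and HSP110 family, Hsp90b1 as the single HSP90 gene, 38 J-domain genes of classes A, B and C (3, 9 and 26 genes), the mitochondrial chaperonin Hspd1, 5 small heat shock proteins, and the 3 regulators or cofactors Zfand2a, Hsf1 and Hspbp1. The inducible cytosolic genes Hspa1a, Hspa1b, Hsph1, Hsp90aa1, Hspb1 and Dnajb1, the constitutive Hspa5 and Hspa8, and Hspe1, Hsp90ab1, Dnaja1, Dnajb4 and Bag3 were not analysed here.

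Chaperones bind unfolded stretches of other proteins and help them to fold, to cross membranes or to be degraded. HSP70 proteins do so in a cycle driven by ATP, J-domain proteins bring them their clients and start the ATP hydrolysis, and HSP110 proteins exchange the nucleotide afterwards. Chaperonins enclose single proteins in a chamber, HSP90B1 folds proteins of the secretory pathway in the endoplasmic reticulum, and small heat shock proteins hold denatured proteins without ATP. The transcription factor HSF1 drives many of these genes under heat or proteotoxic stress by binding repeats of a 5-base unit, the heat shock element, whereas chaperones of the endoplasmic reticulum answer to the unfolded protein response.

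Lungs of 6 Sprague Dawley rats were dissociated and sequenced as single cells with the BD Rhapsody system, which tags each mRNA copy with a unique molecular identifier (UMI). The 3 BLM-treated rats had received 1 dose of BLM at 5 mg/kg through the trachea, and the 3 control rats an equal volume of saline. Lungs of both groups were taken on day 28 after instillation, and a small piece of each was digested. BLM given in this way is a chemical model of lung injury with scarring, and cells that survive the digestion are the ones measured.

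The 25547 cells deposited came from rats with 2568 to 7481 cells each, and the median cell of a rat held 1066 to 1840 UMIs. Cells were clustered without the member genes, and 23 of 28 clusters, with 23214 cells, were named from cell type markers, which joined into classes. 17 classes held at least 10 cells in every rat and were tested, among them 3 clusters called only by their leading genes. The share of cells in a class changed with treatment for several of them: alveolar type 2 (AT2) cells took 7.14% ± 1.12 (SD, n = 3 rats) of control cells and 0.718% ± 0.539 of BLM cells, and endothelial cells 1.90% ± 1.26 and 11.8% ± 3.63. UMIs were summed per rat and class and are given as counts scaled to 1000000 UMIs of that sum (CPM), so that a level is per UMI of the class and not per cell. Fold changes are log2 of BLM over control, tested with edgeR's quasi-likelihood test, and a gene passed at a Benjamini-Hochberg adjusted p under 0.05 over all genes of the class. The p-values measure the spread between these 3 and 3 rats.

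Over all cells, the members took 0.428%, 0.404% and 0.416% of the UMIs of the control rats and 0.490%, 0.488% and 0.484% of those of the BLM rats. The 3 BLM rats lay above the 3 control rats, with a gap wider than the spread in either group, and this sum mixes levels within cells with the makeup of cell types. 49 of the 57 members had enough UMIs to be tested in at least 1 class, 16 of them in 1 class alone and 5 in all 17. The other 8, Dnajb3, Dnajc6, Dnajc16, Dnajc28, Hspa12a, Hspa4l, Hspb2 and Hspb7, were too low in every tested class.

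Within classes, 16 of 361 tests of a member rose (4.43%) and 3 fell (0.831%), beside 2.88% and 2.26% of all 64138 tests. The median log2 fold change over the 361 was 0.12. These 19 changes belonged to 9 members: Hspd1, Zfand2a, Hspa2, Hspa9, Hsp90b1, Dnaja4 and Dnajb9 were higher in BLM, and Hspa12b and Dnajc19 lower. In all 19 the values of the BLM rats and the control rats did not overlap. A pass with 3 and 3 rats makes this likely in advance. It is therefore no separate support, here or for the single genes that passed. 4 of the 19 had passed the filter on low counts through the rats of 1 group alone (Hspa2 in neutrophils and Hspa9 and Zfand2a in proliferating cells through BLM, Hspa12b in proliferating cells through control), so that these could hardly be tested without differing. Over all 361 tests, the 3 BLM rats lay above the 3 control rats in 64 (17.7%), beside 11.6% of all tests. By family, 6 of 17 tests passed for the chaperonin and 4 of 16 for regulators and cofactors, with median log2 folds of 0.56 and 0.84. HSP70 and HSP110 genes passed in 5 of 68 tests, Hsp90b1 in 1 of 17, J-domain genes in 1 of 19 (class A), 1 of 64 (class B) and 1 of 152 (class C), and small heat shock proteins in 0 of 8 (edgeR).

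By cell class, alveolar macrophages had 7 of 48 members past the threshold, 5 higher (8.03% of all genes in the class were) and 2 lower (6.23%). The neutrophils had 3 of 17 higher, where 10.1% of all genes were higher, and the proliferating cells 2 of 27 higher and 1 lower, where 3.52% and 2.58% were. In the Spn monocytes, the non-classical monocytes, 2 of 23 rose beside 0.38% of all genes, in T cells 1 of 25 beside 0.348%, in B cells 1 of 23 beside 0.394%, and in the cluster led by Retnlg and Tchh 2 of 14 beside 2.8%. In the other 10 classes 0 of 184 tests passed in edgeR and 0 in DESeq2, and 23 of the 184 (12.5%) had an unadjusted p under 0.05, beside 13.2% of all genes tested there. 7 of these were among the 32 members tested in endothelial cells, where 18.9% of all genes had such a p. Of all genes in 9 of these classes, either direction together, the called share was 6.82% in endothelial cells, 4.55% in club cells, 2.09% in mesothelial cells and 1.84% in C1q macrophages. It was 0.515% in plasmacytoid dendritic cells, 0.503% in monocytes, 0.184% in the cluster led by Il2ra and Gata3, 0.0483% in dendritic cells and 0.0462% in NK cells, so that few genes of any kind passed there.

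**Figure D1:**
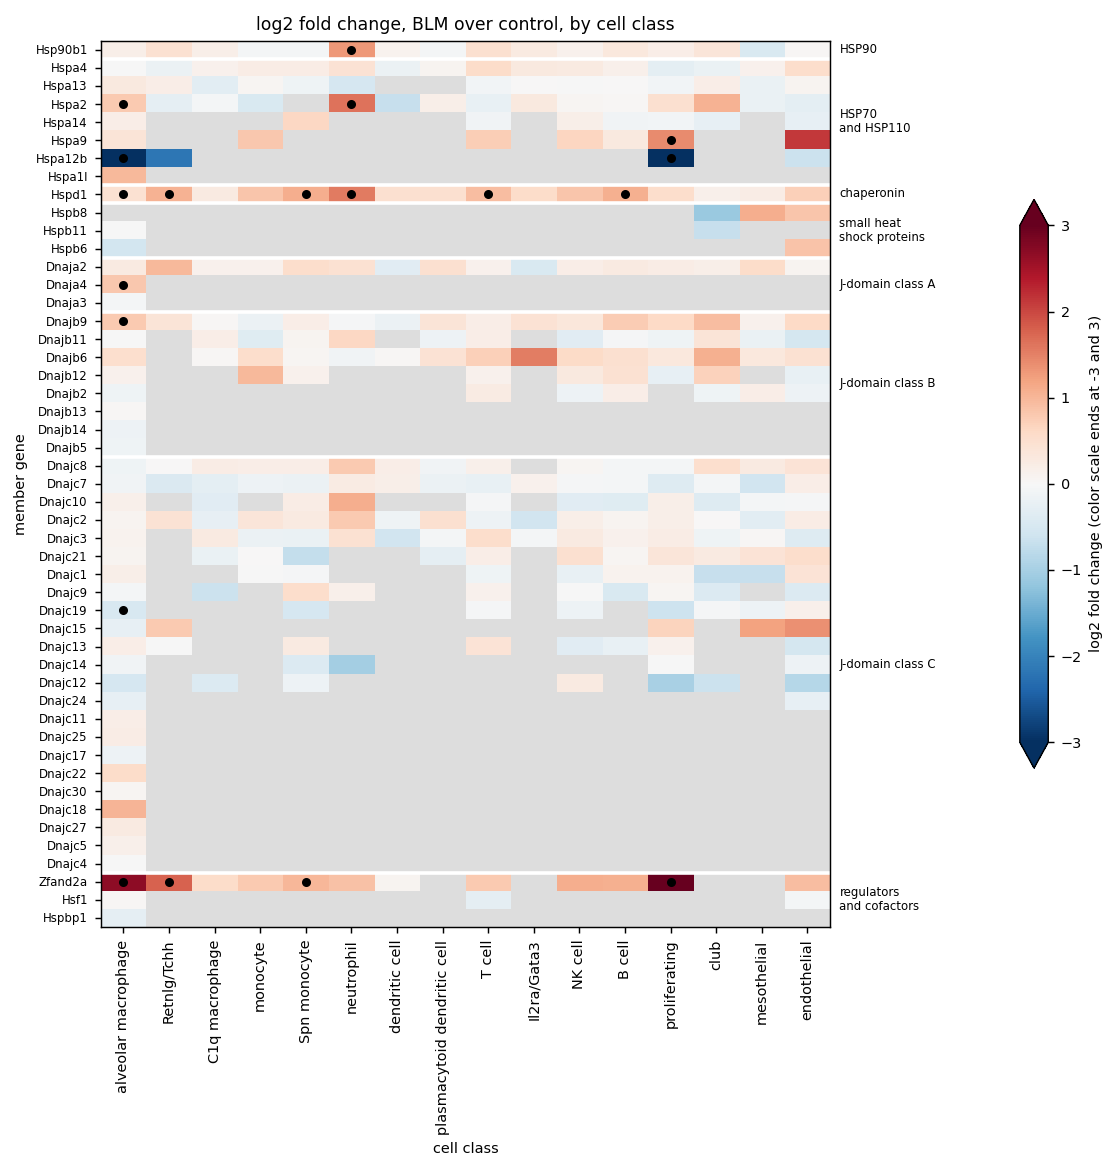
Log2 fold change of BLM over control as a colour scale, with members by family on the y axis and tested cell classes on the x axis; dots mark tests that passed an adjusted p of 0.05 and grey cells were not tested. Hspd1 and Zfand2a are above 0 in every class in which they were tested, and Hspa12b is furthest below 0, in alveolar macrophages (-3.65) and proliferating cells (-3.59).

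The stretch before the start site of Hspd1 holds the letters of a heat shock element, and is shown with those of Zfand2a and Hspa2 because these are the 3 genes that rose in more than 1 class. The search took GAA and TTC, in either order, with any 2 bases between them as 2 units, and a further GAA or TTC in turn, again after any 2 bases, as 3 units, on both strands, so that a 3-unit match always holds 2-unit matches. Bases are from RefSeq, build GRCr8, 5′ to 3′ on the strand of the gene, 250 bases that end just before the start site, with the matched letters in capitals:

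Hspd1, chr9:64084038-64084287, minus strand: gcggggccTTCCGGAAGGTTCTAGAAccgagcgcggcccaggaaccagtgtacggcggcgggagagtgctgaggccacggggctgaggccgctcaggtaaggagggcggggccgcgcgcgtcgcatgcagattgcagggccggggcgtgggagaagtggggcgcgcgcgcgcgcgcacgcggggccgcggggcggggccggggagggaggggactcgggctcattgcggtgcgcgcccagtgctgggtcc

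Zfand2a, chr12:20275200-20275449, plus strand: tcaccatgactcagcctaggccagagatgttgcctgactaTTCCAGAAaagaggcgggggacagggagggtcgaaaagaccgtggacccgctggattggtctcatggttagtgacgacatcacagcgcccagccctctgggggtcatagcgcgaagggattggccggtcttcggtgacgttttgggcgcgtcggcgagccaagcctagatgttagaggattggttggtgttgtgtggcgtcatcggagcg

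Hspa2, chr6:100864192-100864441, plus strand: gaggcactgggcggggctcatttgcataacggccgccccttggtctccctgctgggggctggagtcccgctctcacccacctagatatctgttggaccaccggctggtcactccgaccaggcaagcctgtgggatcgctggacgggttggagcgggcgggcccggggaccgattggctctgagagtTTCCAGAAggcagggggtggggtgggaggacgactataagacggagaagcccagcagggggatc

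In Hspd1 the capitals join 3 overlapping 2-unit matches that begin 242, 237 and 232 bases before the start site, and in Zfand2a and Hspa2 a single 2-unit match, TTCCAGAA in both, begins 210 and 64 bases before it. Of the 57 members 45 had a promoter in the RefSeq table. 1 of these 45 (2.22%) held 3 units, beside 0.798% of all 33469 promoters, and 10 of 45 (22.2%) held 2 units, beside 15.9%. The window counted also ran past the start site, unlike the stretches shown. The single match of Hspa4l begins at position 39 after the start site, and 1 match of Hspa9 at position 18. A match of letters is a description and no binding was measured.

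Hspd1, which encodes the mitochondrial chaperonin HSP60, was higher in BLM rats in more classes than any other member. In neutrophils it was at 152, 99.7 and 145 CPM in control rats 1 to 3 and at 559, 434 and 312 CPM in BLM rats 1 to 3, a log2 fold of 1.56 ± 0.28 (SE; adjusted p = 0.0032). In Spn monocytes the control rats had 249, 185 and 305 CPM and the BLM rats 497, 539 and 584 CPM (1.10 ± 0.19, adjusted p = 0.0041). In both classes the lowest BLM rat stood above the highest control rat.

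Lymphocytes showed the same direction. T cells held the most Hspd1 of the tested classes, 785, 636 and 617 CPM in control rats and 1225, 1387 and 1202 CPM in BLM rats (0.93 ± 0.15, adjusted p = 0.011). B cells had 483, 395 and 370 CPM against 967, 978 and 609 CPM (1.07 ± 0.19, adjusted p = 0.027). The rise in B cells was not called without control replicate 1, 2 or 3 or BLM replicate 1 or 2, and that in T cells not without control replicate 2, so that most single rats decide the call in B cells.

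In alveolar macrophages Hspd1 went from 571, 483 and 570 CPM to 801, 784 and 698 CPM (0.45 ± 0.13, adjusted p = 0.038). The cluster led by Retnlg and Tchh rose from 262, 239 and 362 CPM to 620, 544 and 498 CPM (1.04 ± 0.26, adjusted p = 0.013), with few cells in BLM rats (1.24% ± 0.495 of cells against 9.82% ± 6.55 in control). UMIs per cell of this cluster were 1165, 1071 and 1109 in control rats and 669.5, 662 and 906 in BLM rats, its alveolar macrophage markers summed to 3312 ± 165 and 2636 ± 71.0 CPM, and its 10 leading genes include RF00100, RF00492 and RF00001, which are names of noncoding RNA families. The part of these in the calls of Hspd1 and Zfand2a there was not tested. Both sets of BLM rats lay wholly above their controls. The class of alveolar macrophages joins 2 clusters whose mix changed, with 2554 control and 453 BLM cells in the first and 308 and 1639 in the second. Within these clusters the log2 fold of Hspd1 was -0.058 (adjusted p = 0.887) and 0.31 (adjusted p = 0.284), so the rise in the class was not seen in the first cluster and did not pass in the second. By themselves the first cluster had 1 member past the threshold (4.57% of all genes) and the second 3 (6.08%), of which Dnajb6, a suppressor of protein aggregation, passed in the second alone (0.76, adjusted p = 0.0499).

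Over the 17 classes the fold of Hspd1 was positive in each, from 0.14 to 1.56, and all BLM rats were above all control rats in 11. NK cells (0.83, adjusted p = 0.193), monocytes (0.84, adjusted p = 0.161), endothelial cells (0.71, adjusted p = 0.082) and proliferating cells (0.52, adjusted p = 0.056) had positive folds that did not pass. Hspd1 shares its locus with Hspe1, the co-chaperonin HSP10, which overlaps it in the reference annotation. Whether reads of the 2 genes were mixed in counting was not tested.

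**Figure D2:**
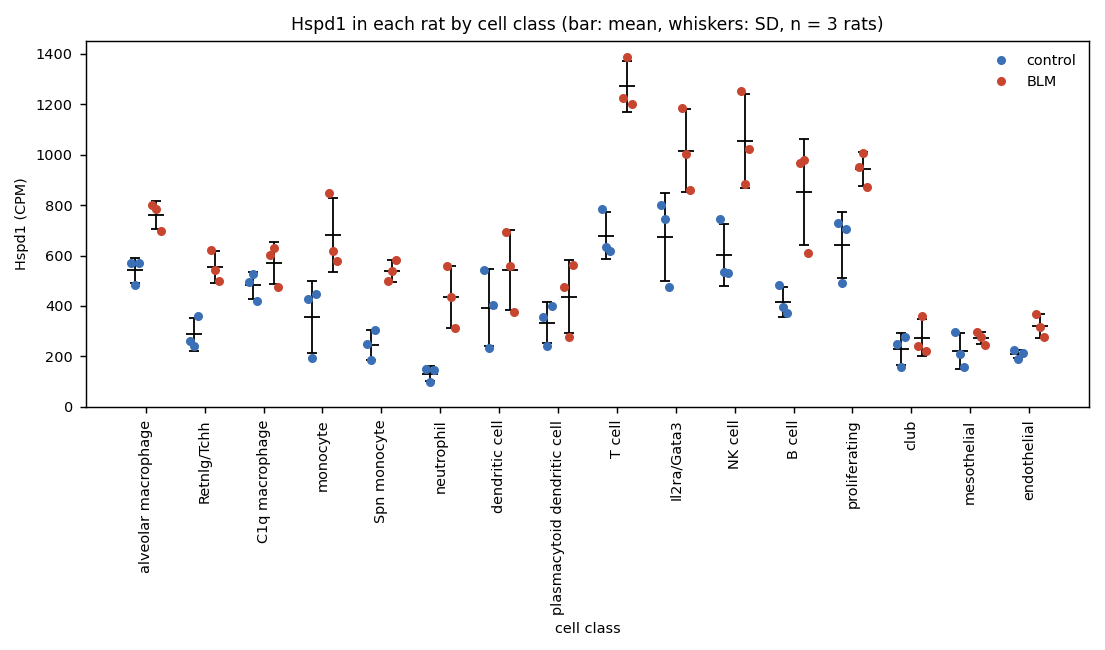
Hspd1 in CPM of summed UMIs for each control and BLM rat (points) in the tested cell classes, with the mean and SD of 3 rats. The BLM rats lie above the control rats in 11 of the 16 classes drawn, among them T cells (1202 to 1387 against 617 to 785).

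Zfand2a, whose product AIRAP is made under arsenite or heat stress and binds the proteasome, had the largest rises of any member in the 17 classes tested. Alveolar macrophages of control rats held 75.2, 73.0 and 68.2 CPM and those of BLM rats 582, 499 and 340 CPM (2.68 ± 0.20, adjusted p = 2.28e-05). Proliferating cells held 34.2, 26.4 and 34.8 CPM against 212, 272 and 405 CPM (3.10 ± 0.27, adjusted p = 4.69e-10). The lowest BLM rat was several times above the highest control rat in both classes.

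The Spn monocytes started higher, at 181, 213 and 227 CPM, and held 404, 372 and 486 CPM in BLM rats (1.01 ± 0.19, adjusted p = 0.0098). In the cluster led by Retnlg and Tchh the values were 92.8, 33.9 and 115 CPM against 345, 158 and 249 CPM (1.77 ± 0.44, adjusted p = 0.0135). No value overlapped, though control replicate 2 was well below its group in the latter class. In all 12 classes tested the fold of Zfand2a was positive, the lowest 0.083 in dendritic cells, and in 9 of them the BLM rats lay above all control rats.

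The rise of Zfand2a in alveolar macrophages was smaller within each of the class's clusters, 0.99 (adjusted p = 0.0803) in the first and 1.26 (adjusted p = 0.000242) in the second. Markers of alveolar macrophages made up 2556 CPM of control and 3571 CPM of BLM proliferating cells, beside 4889 and 6031 CPM in alveolar macrophages, and their part in the result was not tested. Hsf1, the master transcription factor of the response, was tested in 3 classes and overlapped between groups in each: in alveolar macrophages it was at 21.8 ± 2.04 and 22.4 ± 2.94 CPM (0.024, adjusted p = 0.953), in T cells the fold was -0.28 (adjusted p = 0.892) and in endothelial cells -0.065 (adjusted p = 0.982). Hspbp1, a nucleotide exchange factor of HSP70, was tested in 1 class, with a fold of -0.27.

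**Figure D3:**
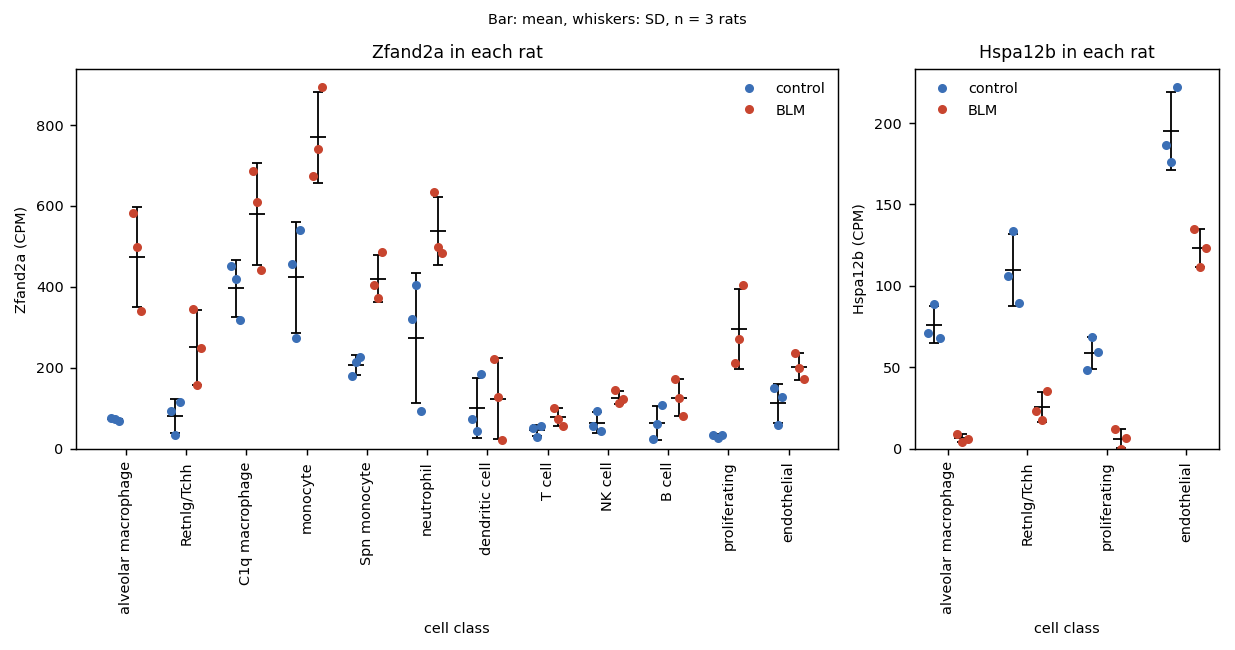
Zfand2a and Hspa12b in CPM of summed UMIs for each control and BLM rat (points) by tested cell class, with the mean and SD of 3 rats. Zfand2a is higher and Hspa12b lower in all BLM rats in alveolar macrophages (340 to 582 against 68.2 to 75.2 CPM, and 4.04 to 8.84 against 68.2 to 89.0 CPM).

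Of the HSP70 family, Hspa12b changed most and in the opposite direction. It is a distant HSP70 relative known from endothelial cells. Alveolar macrophages of control rats held 71.2, 89.0 and 68.2 CPM, and those of BLM rats 8.84, 4.04 and 6.06 CPM (-3.65 ± 0.22, adjusted p = 7.64e-06). Proliferating cells held 48.4, 68.5 and 59.3 CPM against 11.8, 0 and 6.75 CPM (-3.59 ± 0.63, adjusted p = 0.000154), which rests on 76 against 3 UMIs, a ratio of 12.99 with an exact 95% counting interval of 4.28 to 64.4. Control and BLM rats were far apart in both classes. The fall in macrophages was also seen within each cluster of the class, -2.98 (adjusted p = 0.000365) and -3.55 (adjusted p = 9.03e-08).

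Elsewhere the fall of Hspa12b did not pass: the cluster led by Retnlg and Tchh had -2.18 (adjusted p = 0.052), and endothelial cells, which held the most, 195 ± 23.9 CPM in control and 123 ± 12.0 CPM in BLM (-0.65, adjusted p = 0.136). Hspa2, an HSP70 best known from male germ cells, rose in alveolar macrophages, from 81.0, 71.0 and 53.2 CPM to 132, 119 and 106 CPM (0.78 ± 0.16, adjusted p = 0.0087). It passed within neither macrophage cluster, with folds of 0.32 and 0.46. In neutrophils it went from 33.8, 14.2 and 29.0 CPM to 96.6, 98.1 and 70.5 CPM (1.62 ± 0.40, adjusted p = 0.013), and these groups lay apart.

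Hspa9, the mitochondrial HSP70 mortalin, rose in proliferating cells, from 11.4, 10.5 and 29.7 CPM to 41.2, 75.7 and 40.5 CPM (1.41 ± 0.43, adjusted p = 0.044). Its fold was positive in all 7 classes tested, from 0.30 to 2.12. Hspa4, the HSP110 exchange factor APG-2 and the member of the family with the most UMIs (21874), passed in 0 of 17 classes, with folds from -0.30 in proliferating cells to 0.54 in T cells. Hspa13, an HSP70 of the endoplasmic reticulum, ran from -0.51 to 0.30 over 15 classes and Hspa14, which works with Dnajc2 at the ribosome, from -0.25 to 0.61 over 8.

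Hsp90b1, the HSP90 of the endoplasmic reticulum (GRP94) and the member with the most UMIs (63577), was higher in BLM neutrophils. These had 127, 157 and 297 CPM in control rats and 580, 667 and 428 CPM in BLM rats (1.31 ± 0.30, adjusted p = 0.0095). Among the other 16 classes its fold lay between -0.45 in mesothelial cells and 0.48 in T cells, and no test passed.

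The 3 members that rose in neutrophils moved together with markers of another cell type. The 8 alveolar macrophage markers held 853, 598 and 1170 CPM in control neutrophils and 3236, 2940 and 2487 CPM in BLM neutrophils, below the level in alveolar macrophages of either group. UMIs per neutrophil were 709, 644 and 932 in control rats and 1428, 1464 and 960 in BLM rats, and the neutrophil genes S100a8 and S100a9 fell by 1.83 and 1.82 on the log2 scale. When all neutrophils with any UMI of these markers were left out, 574 control cells with 654 UMIs per cell and 458 BLM cells with 635 remained, and 0 members passed in edgeR (0.258% of all genes did).

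In those remaining neutrophils Hsp90b1 had a log2 fold of 1.39 (adjusted p = 0.195). Hspd1 was below the filter, with 14 control and 50 BLM UMIs, at 0, 75.2 and 32.2 CPM against 308, 155 and 89.0 CPM, so that all BLM rats were still above. Hspa2 had 5 and 4 UMIs, at 13.9 and 10.3 CPM. With the 5% of cells of the highest Scrublet doublet scores left out instead, Hspd1 had a fold of 2.78 and Hsp90b1 of 2.20, beside marker sums of 542, 462 and 451 CPM in control and 3105, 3001 and 1674 CPM in BLM. The part of these markers in the neutrophil results was not tested beyond this. In B cells, T cells and Spn monocytes without marker-bearing cells Hspd1 still passed (1.03, 0.92 and 1.21, where 0.505%, 0.442% and 0.459% of all genes did), whereas Zfand2a in Spn monocytes had 0.88 (adjusted p = 0.103).

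**Figure D4:**
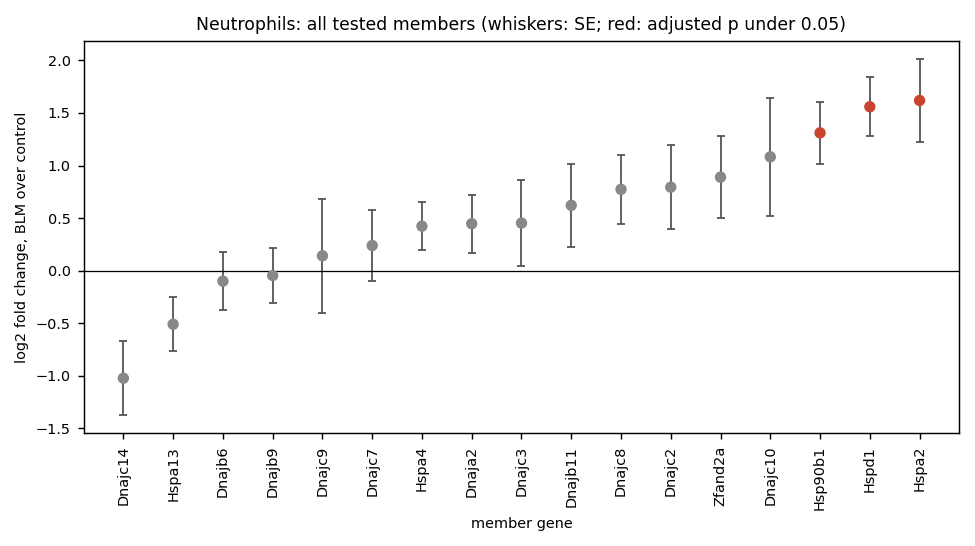
Log2 fold change of BLM over control, with its SE, for the 17 members tested in neutrophils, in order of size. Hspa2 (1.62), Hspd1 (1.56) and Hsp90b1 (1.31) passed an adjusted p of 0.05 and are drawn in red.

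Of the J-domain genes 3 passed the test, each in alveolar macrophages, and by less than Zfand2a or Hspa12b there. Dnaja4, a cytosolic partner of HSP70, rose from 14.9, 9.999 and 14.0 CPM to 24.2, 26.3 and 24.2 CPM (0.82 ± 0.19, adjusted p = 0.015). Dnajb9, the endoplasmic reticulum protein ERdj4 and a target of the unfolded protein response, rose from 123, 97.0 and 109 CPM to 228, 222 and 140 CPM (0.79 ± 0.19, adjusted p = 0.021). Dnajc19, of the mitochondrial protein import motor, fell from 63.2, 61.0 and 63.9 CPM to 49.6, 41.9 and 48.5 CPM (-0.49 ± 0.12, adjusted p = 0.022). BLM and control rats were apart for each, and none of the 3 passed within either macrophage cluster. The folds within the first and second cluster were 0.66 and 0.82 for Dnaja4, 0.35 and 0.54 for Dnajb9, and -0.53 and -0.22 for Dnajc19.

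In alveolar macrophages 13 of 48 members lay higher in all BLM rats and 3 lower in all, where 19.2% and 12.8% of all genes did. Dnajc19 overlaps Fxr1 and Dnajb9 the locus LOC120103526 in the reference annotation, and the strand used in counting is not given in the sources used here. Dnaja2, a cytosolic partner of HSP70, and Dnajc8, a nuclear protein of the splicing machinery, passed in no class, with folds of -0.45 to 0.96 over 17 and -0.14 to 0.77 over 16. The lowest and highest folds of the endoplasmic reticulum co-chaperones Dnajb11 and Dnajc3 were -0.52 and 0.62, and -0.58 and 0.53.

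By place in the cell, 2 of 109 tests of the 10 endoplasmic reticulum members rose, Hsp90b1 in neutrophils and Dnajb9 in alveolar macrophages, with a median fold of 0.074; this 1.83% is below the 2.88% of all tests that were higher. Of 40 tests of the 8 mitochondrial members 7 rose, 6 of them of Hspd1, and 1 fell, with a median of 0.48. The 5 measured genes of 17 listed as heat-inducible, Hspa4, Hspa4l, Hspb8, Hspd1 and Zfand2a, rose in 10 of 49 tests with a median of 0.52, all 10 of them of Hspd1 or Zfand2a.

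The small heat shock proteins were mostly found in stromal and epithelial classes. Of these, fibroblasts and smooth muscle cells or pericytes had few control cells, and AT2 cells few BLM cells. Hspb8, which works with BAG3 in autophagy of damaged proteins, had a fold of 1.10 in mesothelial cells, from 210 ± 110 to 428 ± 54.4 CPM (adjusted p = 0.103), and of -1.11 in club cells, from 176 ± 31.7 to 78.8 ± 30.5 CPM (adjusted p = 0.133). Neither passed. Markers of other cell types moved in the club cells: 7 mesothelial markers summed to 201 ± 56.3 CPM in control and 1335 ± 100.6 CPM in BLM, and 8 alveolar macrophage markers to 45.2 ± 19.8 and 247 ± 210 CPM, and their part was not tested. When classes with at least 3 cells in every rat were added, a choice made after seeing the data, 4 small heat shock proteins passed in 1 class each and Zfand2a in AT2 cells. Of all genes, 2.15% passed in AT2 cells, 3.38% in fibroblasts and 6.38% in smooth muscle cells or pericytes. Zfand2a in AT2 cells, Hspb8 in fibroblasts and Hspb7 in smooth muscle cells or pericytes passed the filter on low counts through BLM rats alone. These could hardly be tested without differing.

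In AT2 cells Hspb11, the intraflagellar transport protein IFT25, went from 242, 164 and 219 CPM to 46.1, 54.8 and 21.3 CPM (-2.43, adjusted p = 0.000616), and Zfand2a from 12.5, 17.4 and 15.8 CPM to 46.1, 34.3 and 85.0 CPM (1.92, adjusted p = 0.046). The smallest of these AT2 samples, BLM replicate 1, had 6 cells. In fibroblasts Hspb8 was at 0, 0 and 16.6 CPM against 110, 110 and 154 CPM (3.86, adjusted p = 0.0136), from 1 and 458 UMIs, a ratio of 12.6 with a counting interval of 2.26 to 500. The 47 control fibroblasts make this ratio wide.

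Hspb6 and Hspb7, small heat shock proteins of muscle, passed in smooth muscle cells and pericytes. Hspb6 had 0, 375 and 383 CPM in control and 156, 167 and 181 CPM in BLM (-0.98, adjusted p = 0.037), with values on both sides of the BLM rats, so its groups overlap. Hspb7 had 0, 0 and 26.1 CPM against 135, 66.9 and 121 CPM (2.69, adjusted p = 0.0036), from 3 and 123 UMIs, a ratio of 6.34 with a counting interval of 2.12 to 31.2. The control rats held 6, 25 and 56 of these cells.

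The effect of BLM differed between classes for 7 of the 35 members that could be tested in 1 fit with the rat as a block, where 19% of all 8432 genes differed. These were Hspa12b, Zfand2a, Hsp90b1, Hspd1, Dnajc15, Dnajc12 and Hspa4, of which the last 3 passed in no class alone. Set against the mean effect of the other classes, that of Zfand2a was larger by 2.05 in proliferating cells (adjusted p = 0.0023) and by 1.56 in alveolar macrophages (adjusted p = 4.37e-05). In neutrophils Hsp90b1 (1.14, adjusted p = 0.000224), Hspd1 (0.87, adjusted p = 0.0113) and Hspa2 (1.55, adjusted p = 0.0351) stood above the mean of the other classes. Dnajc14, a membrane protein of the endoplasmic reticulum, stood below it (-1.18, adjusted p = 0.0395). The macrophage markers in neutrophils are given above. Hspa2 and Dnajc14 had not passed the test of all class terms in 1 fit (adjusted p = 0.0594 and 0.553).

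Dnajc15, a relative of Dnajc19 in the mitochondrial inner membrane, was below the mean of the other classes in alveolar macrophages (-0.91, adjusted p = 0.0442). It had 56.6 ± 6.98 and 49.7 ± 1.37 CPM there (-0.26), against 45.1 ± 12.1 and 107 ± 11.0 CPM in mesothelial cells (1.20, adjusted p = 0.0943). Dnajc12, a co-chaperone of the enzymes that hydroxylate aromatic amino acids, had folds between -0.96 in proliferating cells and 0.27 in NK cells.

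The level of each member by class, over the rats with at least 10 cells of the class, is given as a description with no test. Ciliated cells, Spp1 macrophages and basophils or mast cells had such rats in the BLM group alone, and tuft cells in the control group alone. Ranks of these classes therefore mix cell class with treatment. Hspa4l, an HSP110 gene known from testis, was at 230 ± 33.5 CPM in ciliated cells and at 36.7 in tuft cells, the next class, and was the single member that reached both 4 times the next class and 50 CPM. Ciliated cells also had the highest levels of Dnajb13, a protein of the axoneme (168 ± 42.8, and 47.3 in alveolar macrophages), of Dnajb2 (260), of Dnajc15 (204), of Hspb11 (179, and 140 in AT2 cells) and of Dnaja4 (109). Dnajb13 overlaps the locus LOC103691200 and lies by Ucp2 in the reference annotation.

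Immune classes led for other members. Hspd1 was highest in T cells (975 CPM) and lowest in basophils or mast cells (184), and Hspa4 was highest in the cluster led by Il2ra and Gata3 (741), with T cells next (631). Zfand2a was highest in monocytes (597) and C1q macrophages (488). Dnajc7, a co-chaperone that binds both HSP70 and HSP90, was at 823 ± 195 CPM in plasmacytoid dendritic cells and 244 in T cells. Dnajb9 was at 568 ± 161 CPM in B cells and at 562 ± 88.3 in AT2 cells, which do not differ beyond their spread.

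In stromal classes, Hspb2 was found chiefly in smooth muscle cells or pericytes (153 ± 27.2 CPM); it overlaps Cryab in the annotation. Hspb6 was at 252 CPM in smooth muscle cells or pericytes. Hspb8 was highest in mesothelial cells (319 ± 142), AT2 cells (151) and club cells (127), and Dnajc10, a reductase of the endoplasmic reticulum, in smooth muscle cells or pericytes (269) and fibroblasts (241). Hspa12b was highest in endothelial cells (159 ± 42.7). Dnajc9, a chaperone of histones H3 and H4, was highest in proliferating cells (331). Hsp90b1 was detected in every class, from 376 CPM in neutrophils to 2345 in ciliated cells.

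**Figure D5:**
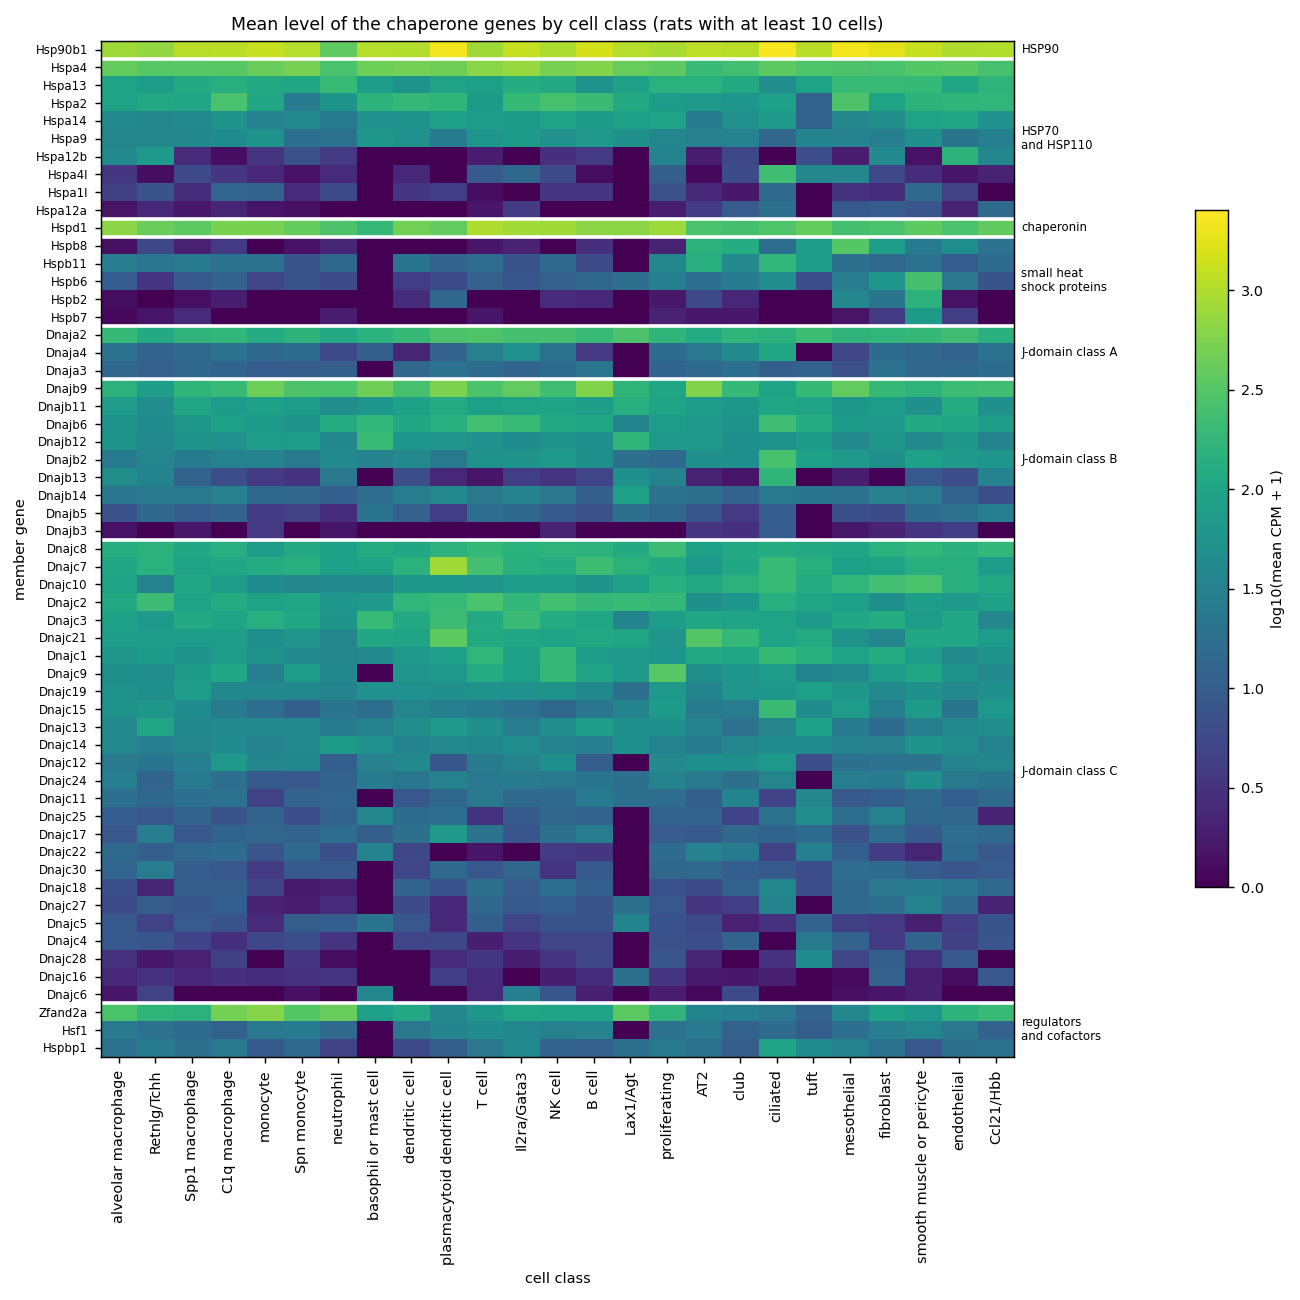
Mean level of the members (y axis, by family) by cell class (x axis), as a colour scale of log10 of the mean CPM plus 1, over rats with at least 10 cells of the class. Hspa4l and Dnajb13 are highest in ciliated cells (BLM rats alone), Dnajc7 in plasmacytoid dendritic cells and Dnajc9 in proliferating cells.

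Among chaperone genes that are not members, 33 of 481 tests of 41 co-chaperones and chaperonin subunits rose and 2 fell, where 2.88% and 2.26% of all tests did. Chordc1 and Stip1, partners of HSP90, and Fkbp5, an HSP90-bound immunophilin induced by glucocorticoids, recurred. In Spn monocytes Fkbp5, Stip1, Chordc1 and Ptges3 rose by 2.34, 1.45, 1.41 and 0.87, in monocytes Fkbp5, Stip1 and Chordc1 by 1.75, 1.53 and 1.35, in B cells Stip1 and Chordc1 by 1.33 and 1.20, and in T cells Chordc1 by 1.14. Alveolar macrophages had 7 of 40 higher (8.03% of all genes were), Fkbp5 (1.40), Cct3 (0.45), Stip1 (0.51) and Chordc1 (0.51) among them, and C1q macrophages Fkbp5 (2.10). Endothelial cells had Fkbp5 (1.70), Chordc1 (1.47) and Cct2 (0.86) higher and Grpel2, which exchanges the nucleotide of mitochondrial HSP70, lower (-2.38). Fkbp5 in Spn monocytes passed the filter on low counts through the BLM rats alone, and Grpel2 in endothelial cells through the control rats alone. These could hardly be tested without differing.

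In neutrophils 10 of 26 were higher (10.1% of all genes were), with Cct6a at 2.11, Fkbp5 at 1.47, Cct5 at 1.20 and Ptges3 at 1.09, beside the macrophage markers. Cryab, a small heat shock protein whose symbol the rule did not take, fell in club cells (-4.10), beside the mesothelial and macrophage markers given above. Cct6a in neutrophils passed the filter on low counts through the BLM rats alone, and Cryab in club cells through the control rats alone. Both could hardly be tested without differing. Of the unfolded protein response outside the members, 6 of 247 tests of 22 genes rose and 3 fell, no larger shares than the 2.88% and 2.26% of all tests. Herpud1 (0.80) and Ddit3 (0.85) rose in alveolar macrophages and Ddit3 in proliferating cells (1.35). In neutrophils Canx (1.34), Pdia3 (1.14) and Pdia6 (1.37) rose and Ddit3 fell (-1.06), and in endothelial cells Pdia6 (-0.92) and Creld2 (-1.20) fell. For the genes outside the members, values within the separate clusters of the alveolar macrophages, whose mix changed with treatment, are not given here.

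RNA that can leak from other cells was followed in 10 measured genes such as Sftpc. Of their 58 tests 1 rose and 19 fell, where 2.88% and 2.26% of all tests did. Sftpc in endothelial cells, for example, was at 370 ± 54.3 CPM in control and 17.8 ± 11.6 CPM in BLM. The 19 falls include genes that a class holds itself, S100a8 and S100a9 in neutrophils and Lyz2 in alveolar macrophages (51930 CPM in control, 29850 in BLM). Lyz2 also fell in proliferating cells and the Retnlg cluster. These falls are not read as leaked RNA. The part of such RNA in the members' levels was not tested. The 19 immediate early genes listed for the response to tissue digestion were not analysed here.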

How the data were processed

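Single-cell mRNA was counted in lungs of 3 control and 3 BLM-treated rats. The deposited values are counts the authors made: whole UMI counts per gene and cell, not normalized, of which a gene's values lie 1 field right of its name in the header. Genome build mm9, a mouse build, is named by the submitters' processing notes; the aligner is not given in the sources used here. Rats were taken from the endings of the cell names, where the letter N was read as control and F as BLM: the labels do not spell these letters out, but the cells under each letter are as many as the study counts for that group. Of the cell barcodes 313 occur in 2 rats and 1 in 3.

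Cells were clustered (Python 3.11.15, scanpy 1.11.5, leidenalg 0.10.2; 2000 variable genes without the members, 30 components, Leiden resolution 1.0). A cluster was named where at least 3 markers were higher by 1 on the log2 scale, their mean fold was at least 1 and its top 10 genes held a marker of that class and no more of any other; the condition on the top 10 was set after the leading genes were seen. All cells were kept: Scrublet called 99 (0.388%) as doublets, too few to be relied on. UMIs were summed per rat and class and tested where every rat held 10 cells, with filterByExpr, TMM and edgeR 4.0.16 (R 4.3.3), without a replicate block, and Benjamini-Hochberg adjustment over the genes of a class. Differences between classes used 1 fit with rat as a block. On simulated counts, changes of 1 on the log2 scale were found for 86% of genes in alveolar macrophages (9183 genes), 45% in B cells (3999), 37% in neutrophils (3335) and 21% in endothelial cells (6274).

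Named are members past the threshold, Hsf1, Bag3 and Zfand2a, the 8 members with the most UMIs, those at 4 times the next class and 50 CPM or more, and up to 4 genes per class of the other lists; further members were named after their values were seen. The members and lists were chosen with earlier results of these data known. Alternatives were DESeq2 1.42.0, RLE size factors, no filter on low counts, a replicate block, other resolutions (0.5, 2.0), member genes in the clustering, cells of at least 500 UMIs, removal of the 5% highest Scrublet scores, classes of 30 cells, and leaving out each rat. RLE moved the median fold of a class by -0.0149 to 0.0117. Chosen after seeing the data were each macrophage cluster alone, classes of 3 cells, and cells without alveolar macrophage markers. For 1 of the 17 tested classes, which counts over all classes include, no values are reported here and none are drawn. Counting intervals cover counting error only.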

Additional observations from a re-analysis of the deposited data

Results flagged for a closer look

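The effect of BLM differed between cell classes for 7 of 35 members, where 19% of all 8432 genes differed. This was edgeR's test of all class terms together, with Benjamini-Hochberg adjustment over all genes. The adjusted p was 1.51e-06 for Hspa12b, 1.25e-05 for Zfand2a, 0.000661 for Hsp90b1 and 0.00724 for Hspd1. It was 0.0124 for Dnajc15, 0.014 for Dnajc12 and 0.0438 for Hspa4. Hsp90b1 and Zfand2a passed in every alternative of this test, and Hspa12b in all but the one restricted to the 10 classes of at least 30 cells in every rat.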

How the results depend on the processing

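Of the 19 changes of a member in a class, 4 passed under all alternatives in which they were tested: Hspa12b in alveolar macrophages and in proliferating cells, Zfand2a in proliferating cells and Hspd1 in neutrophils. The latter could not be tested without marker-bearing cells. In proliferating cells Zfand2a had passed the filter on low counts through BLM rats alone, and Hspa12b through control rats alone. Alternatives that keep this filter could therefore hardly test them without a difference, and say little on how firm these calls are. Of the 19, only Hspd1 in alveolar macrophages turned its direction, within the first cluster of that class (-0.058). The cause was not tested.

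Without the filter on low counts 27 tests rose and 6 fell in place of 16 and 3, with 3 in B cells, 5 in endothelial cells, and 1 each in NK cells, club cells, the Il2ra cluster, mesothelial cells and monocytes. DESeq2 called 2 in B cells, and resolutions 0.5 and 2.0 called 0. Endothelial cells had 1 with cells of at least 500 UMIs and 1 without the highest Scrublet scores. Alveolar macrophages had 4 with the replicate block, 1 in the first cluster and 3 in the second, Spn monocytes 1 and neutrophils 0 without marker-bearing cells. The difference between classes was called for 4 members in classes of 30 cells. 2 members were at 4 times the next class by the mean over cells, and 22.2% of member promoters held 2 units. Shares of all genes are not set beside the counts of members in this paragraph. The counts therefore do not show whether members differ from other genes.

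Leaving out 1 rat gave 8 to 15 higher and 1 to 3 lower, again without the share of all genes beside these counts. By class, it gave 0 to 1 in B cells, T cells and endothelial cells, 0 to 2 in Spn monocytes and the Retnlg cluster, 3 to 7 in alveolar macrophages, 1 to 4 in neutrophils and in proliferating cells, and 4 to 8 for the difference between classes. Lost were Hspd1 in the Retnlg cluster without BLM replicate 1 or 2, in alveolar macrophages also without control replicate 1 or 2, and in Spn monocytes without BLM replicate 3; Zfand2a in Spn monocytes without BLM replicate 3 or control replicate 1, and in the Retnlg cluster without BLM replicate 1; Dnajc19 without BLM replicate 2 or 3 or control replicate 1 or 3, Dnajb9 without BLM replicate 1 or 2 or control replicate 3, and Dnaja4 without BLM replicate 2; Hsp90b1 in neutrophils without BLM replicate 2 or control replicate 1 and Hspa2 there without BLM replicate 2; and Hspa9 without BLM replicate 1 or control replicate 2.

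Same-numbered rats did not deviate together (correlations -0.254 to 0.0954), so the numbers do not pair them. The replicate block lost Dnaja4, Dnajc19 and Hspd1 in alveolar macrophages, Hspa2 in neutrophils and Hspa9. Depth limits small classes: members in AT2 cells, fibroblasts and pericytes rest on few control or BLM cells.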
